A study of Mus musculus with 17 samples.

Results

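Among 17 mammary tumours that were induced by mutant Myc, 6 carried the histology label EMT (epithelial to mesenchymal transition), and in 3 of these the level of Cdh1, the gene of the epithelial cadherin, was low. These 3 tumours, called EMT 4, EMT 5 and EMT 6 here, were chosen by their Cdh1 value, which was below 10 on the log2 scale, and they were compared with all 9 tumours labelled Squamous. The values that chose them were 7.19 in EMT 4, 8.10 in EMT 5 and 7.04 in EMT 6. The EMT tumour next above the limit was EMT 3 at 11.84, and the 9 Squamous tumours lay between 11.13 and 11.97, so the limit fell in a wide gap. All 17 tumours came from FVB mice and carried Myc T58A, a Myc protein with a substituted phosphorylation site, driven by MMTV, a promoter that works in mammary epithelial cells. All had the label low expressing. The labels give no age and do not say whether the tumours came from separate animals. RNA of whole tumour tissue was hybridised, 1 Affymetrix array per tumour, so each value mixes cancer cells with host stroma and blood cells. A lower value can mean fewer cells of a type or less RNA per cell, and these cannot be told apart.

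Epithelial cells are held together by adherens junctions, tight junctions and desmosomes, whose cadherins, claudins and plaque proteins are switched on by epithelial transcription factors; the Esrp proteins direct the splicing of epithelial transcripts. In an epithelial to mesenchymal transition, Twist factors are active, repressors of the Zeb and Snail families bind short CACCTG elements in the promoters of such genes, the junctions are taken apart, and the cells gain motility and mesenchymal filaments. A squamous tumour goes another way: its cells stay epithelial and mature towards keratinocytes, with stratified keratins and a cornified envelope. The mammary gland itself holds luminal cells, which make milk and express simple keratins, and basal cells, which express p63, Krt5 and Krt14.

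Values are log2 levels of 1 probe set per gene, as deposited. Array medians of the 12 compared tumours lay between 7.23 and 7.40 and lower quartiles between 5.24 and 5.41, and values below that quartile are called near background here. Cdh1 in the 3 EMT tumours thus lay close to the median of an array, not at its floor. The array titles had 2 formats. EMT 5, EMT 6 and Squamous 9 had titles with TM behind the number, and EMT 4 and the other 8 Squamous tumours had numbered titles. Values spread more widely on the TM arrays (SD 2.46 to 2.51) than on the numbered arrays (2.25 to 2.28). Their minima were lower too (2.47 to 2.63 against 3.07 to 3.21). On the 3 TM arrays 2989 of 22690 probe sets had identical values. Title format was therefore a term of the model, but an additive term does not remove a difference in spread. A difference between EMT 4 and the pair of EMT 5 and EMT 6 cannot be told apart from title format. RNA integrity was read as the 3′ minus 5′ log2 difference of control probe sets, which is larger where RNA is less intact. This 3′ excess averaged 0.342 in EMT and 0.483 in Squamous tumours (difference −0.141, exact two-sided permutation p = 0.0591 over 220 splits). The EMT tumours thus had the smaller mean 3′ excess. Within title format the exact permutation p was 0.259, where 0.037 was the smallest possible. The beta-actin probe sets alone differed by −0.2125 (exact permutation p = 0.0227, and 0.0741 within title format), and those of Gapdh by −0.0698 (exact permutation p = 0.55). The part of RNA integrity in the results was not tested.

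Over all 12393 genes, 811 were higher in the EMT tumours with lost Cdh1 (6.54%) and 689 were lower (5.56%), together 12.1% (limma, adjusted p below 0.05). The lower genes had the larger differences: 180 of them fell by more than 3 on the log2 scale, and 20 of the higher genes rose by more than 3. All 3 EMT tumours lay above all 9 Squamous tumours in 8.52% of genes and below them in 6.2%. Counts of list members below are to be read against these shares and those of the called genes. EMT 4 and Squamous 9 carried much of the count. Without EMT 4, 266 genes were higher and 437 lower. Without Squamous 9, when no Squamous tumour is left beside EMT 5 and EMT 6 and the estimate rests on EMT 4, 502 were higher and 360 lower. An adjusted p here sets a difference against the spread between tumours. It says nothing about EMT tumours at large, since the 3 were picked for their Cdh1 and any gene that varies with Cdh1 among EMT tumours came along. For that reason the junction genes, the epithelial regulators and the EMT transcription factors are described below by their values and by how many members did not overlap between the groups, with no test.

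Besides Cdh1, which chose the tumours, 4 genes mark this state. Epcam, an epithelial adhesion protein, was 7.09, 5.92 and 7.56 in EMT 4, EMT 5 and EMT 6, and 11.19 to 12.05 (median 11.92) in the Squamous tumours. Esrp1, which directs epithelial splicing, was 4.76, 4.67 and 5.82 against 10.54 to 11.47 (median 11.13), so it was near background in EMT 4 and EMT 5. Zeb1, which represses Cdh1 transcription, was 10.13, 9.78 and 10.48 against 7.28 to 8.97 (median 8.56). Twist1, another such factor, was 8.76, 8.34 and 8.91 against 4.89 to 7.05 (median 6.46). In these 4 genes the groups did not overlap. In the EMT tumours above the limit, EMT 1, EMT 2 and EMT 3, Cdh1 was 11.91, 12.09 and 11.84, as the rule requires of them. Esrp1 was 11.19, 10.49 and 11.41 there, Epcam 12.18, 11.64 and 12.62, and Zeb1 8.04, 8.41 and 8.07. Twist1 was 6.96, 8.01 and 5.97, so EMT 2 lay above every Squamous tumour in Twist1 and close to EMT 5. Some other genes described below also put EMT 2 outside the Squamous range, on the side of EMT 4, EMT 5 and EMT 6. Its Lcn2 was 9.02, Wif1 3.87, Kit 7.53, Fosl1 10.05 and Plat 10.65, while EMT 1 and EMT 3 did not lie on that side. Nor did EMT 2 in other genes, such as Nefl (3.84) and Krt5 (13.85). Differences like that of Lcn2 were therefore not confined to tumours with lost Cdh1.

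**Figure D1:**
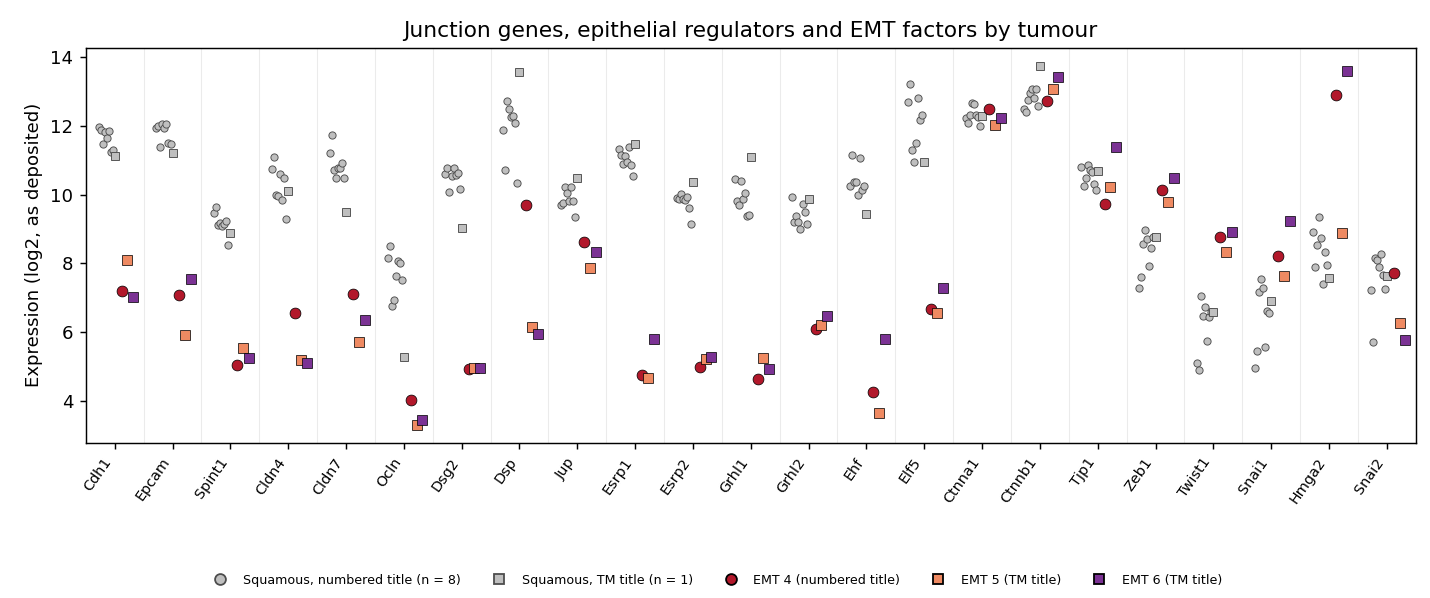
Expression (log2, as deposited) of junction genes, epithelial regulators, cytoplasmic junction partners and EMT factors in each tumour; grey points are the 9 Squamous tumours, coloured points the 3 EMT tumours, squares the TM titles. Cdh1 lay at 7.04 to 8.10 in EMT and at 11.13 to 11.97 in Squamous tumours, while Ctnna1 lay at 12.03 to 12.48 and 11.98 to 12.67.

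The promoters of 4 of these genes are shown. They had the largest differences among the lower genes considered that have 2 or more CACCTG elements in a promoter. CACCTG is the run of letters that the Zeb and Snail repressors read. Genes on the chromosome that carries the desmosome gene Dsg2 were left out before this ranking, so it does not cover them. The sequences are the 250 bases before the RefSeq start of each gene (GRCm38.p6), read 5′ to 3′ on the gene's strand, with each CACCTG or its reverse complement CAGGTG in capitals. Elf5, an alveolar transcription factor, is at chr2:103411848-103412097 on the plus strand and has 3 elements. Epcam is at chr17:87635729-87635978 on the plus strand and has 2. Spint2, which encodes a membrane-bound protease inhibitor, is at chr7:29281978-29282227 on the minus strand and has 3. Cldn7, a claudin of tight junctions, is at chr11:69965171-69965420 on the plus strand and has 2.
Elf5: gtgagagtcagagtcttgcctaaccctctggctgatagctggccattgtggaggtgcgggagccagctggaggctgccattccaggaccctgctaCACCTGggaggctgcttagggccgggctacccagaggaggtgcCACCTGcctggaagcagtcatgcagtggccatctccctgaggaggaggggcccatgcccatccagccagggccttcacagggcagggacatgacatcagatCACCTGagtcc
Epcam: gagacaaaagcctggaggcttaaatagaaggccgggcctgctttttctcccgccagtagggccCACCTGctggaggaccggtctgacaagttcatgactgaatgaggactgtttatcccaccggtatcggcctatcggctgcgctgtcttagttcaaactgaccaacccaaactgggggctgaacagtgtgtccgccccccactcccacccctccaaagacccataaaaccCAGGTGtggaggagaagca
Spint2: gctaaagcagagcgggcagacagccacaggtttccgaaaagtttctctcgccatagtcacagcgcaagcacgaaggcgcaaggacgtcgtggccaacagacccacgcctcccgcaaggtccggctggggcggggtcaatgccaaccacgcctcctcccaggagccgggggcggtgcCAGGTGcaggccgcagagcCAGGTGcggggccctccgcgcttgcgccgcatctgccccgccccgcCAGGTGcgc
Cldn7: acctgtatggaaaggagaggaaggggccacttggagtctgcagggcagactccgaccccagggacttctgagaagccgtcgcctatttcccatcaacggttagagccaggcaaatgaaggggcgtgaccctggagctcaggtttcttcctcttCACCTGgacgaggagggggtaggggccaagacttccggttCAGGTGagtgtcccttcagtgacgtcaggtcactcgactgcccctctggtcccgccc

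In the whole table, 17.2% of 32851 promoter windows held at least 1 element on either strand and 2.06% held 2 or more. The 4 lists of junction genes and epithelial regulators had 52 members past the limma threshold as lower in the EMT tumours, of which 27 had an entry. Their 37 windows held the element in 19 cases (51.4%). Counted by gene, 17 of the 27 (63%) had it in some window, against 19.4% of all 27025 genes, and genes with several windows have more chances to hold it. The threshold only picked genes here and is no test, since the tumours were chosen by Cdh1. List members that did not pass were not counted. The shares therefore cannot tell the lower genes from junction and regulator genes at large. These shares describe letters in a window and say nothing of binding.

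In the adherens junction list, 13 of 20 measured members lay below every Squamous tumour in all 3 EMT tumours, Cdh1 itself included. For 0 they lay above (6.2% and 8.52% over all genes). The median difference was −2.38, where the median over all genes was 0.01. The list is broader than its name and also holds other epithelial surface proteins, proteases and their inhibitors. Epcam, Cd24a, Prss8, St14, Spint1 and Spint2 were among the 13, so the count does not describe adherens junctions alone. Spint1, the partner protease inhibitor of Spint2, was 5.05, 5.55 and 5.25 in EMT 4, EMT 5 and EMT 6 against 8.53 to 9.63 (median 9.15). St14, the matriptase that both inhibitors block, was 8.24, 5.50 and 6.20 against 10.53 to 11.08 (median 10.72). Neither gene overlapped between the groups. The cytoplasmic partners of cadherin stayed within the Squamous range or close to it. Ctnna1 (alpha-catenin) was 12.48, 12.03 and 12.23 against 11.98 to 12.67, and Ctnnb1 (beta-catenin) 12.70, 13.07 and 13.40 against 12.41 to 13.74. Ctnnd1 (p120-catenin) was 9.15, 8.82 and 8.88 against 8.88 to 9.44. The differences were 0.04 (SE 0.18) for Ctnna1, −0.25 (SE 0.20) for Ctnnb1 and −0.06 (SE 0.13) for Ctnnd1. Other cadherins were not higher in all 3 tumours: Cdh2 (N-cadherin) was 7.79, 5.40 and 4.10 against 4.54 to 7.22, and Cdh3 (P-cadherin) was 6.20, 6.07 and 5.79 against 6.40 to 7.39. Cdh2 was thus above the Squamous range in EMT 4 and below it in EMT 6.

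Tight junction genes lay below every Squamous tumour for 17 of 24 members and above for 0 (6.2% and 8.52% over all genes). The median difference was −2.04. Cldn4 was 6.55, 5.19 and 5.12 against 9.30 to 11.08 (median 10.10), and Cldn7 was 7.11, 5.71 and 6.36 against 9.49 to 11.73 (median 10.77). Cldn3 was 7.16, 7.90 and 7.66 against 10.04 to 12.77 (median 11.50). Ocln (occludin), the other tetraspan strand protein, was 4.05, 3.32 and 3.46 against 5.28 to 8.51, with the lowest Squamous value in Squamous 9. Of the scaffold proteins, Tjp1 (ZO-1) was 9.73, 10.21 and 11.39 against 10.12 to 10.86, so EMT 4 lay under the Squamous range and EMT 6 above it. Crb3, an apical polarity protein, was 6.66, 6.77 and 6.88 against 7.85 to 8.59.

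Desmosome genes lay below every Squamous tumour for 9 of 13 members and above for 0 (6.2% and 8.52% over all genes). The median difference was −2.999. Dsg2, the desmoglein of simple epithelia, was 4.95 in each of the 3 EMT tumours against 9.03 to 10.77 (median 10.57), so all 3 were near background. Dsp (desmoplakin), which ties the plaque to keratin, was 9.71 in EMT 4 but 6.15 in EMT 5 and 5.94 in EMT 6, against 10.32 to 13.54 (median 12.25). Pkp1, a plaque protein of stratified epithelium, was 11.15, 6.80 and 8.12 against 9.53 to 13.16, and Perp, a desmosomal membrane protein, was 11.54, 5.56 and 9.64 against 9.98 to 13.31. EMT 4 was inside the Squamous range for both, and EMT 5 and EMT 6 were below it. Jup (plakoglobin), shared by desmosomes and adherens junctions, was 8.63, 7.86 and 8.33 against 9.36 to 10.48.

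Epithelial regulators lay below every Squamous tumour for 16 of 21 members (6.2% over all genes), and all 21 differences were negative (median −2.81). Grhl1 and Grhl2, grainyhead factors that drive junction genes, were 4.65, 5.24 and 4.94 and 6.10, 6.20 and 6.49, against 9.38 to 11.08 and 8.99 to 9.94. Esrp2, the second splicing regulator, was 4.99, 5.21 and 5.29 against 9.13 to 10.38 (median 9.87). Ehf, an epithelial ETS factor, was 4.27, 3.66 and 5.81 against 9.43 to 11.14 (median 10.26). Elf5 was 6.67, 6.57 and 7.28 against 10.94 to 13.21 (median 12.17). Trp63 (p63), the master regulator of stratified and basal epithelium, was 4.32, 4.54 and 5.88 against 7.09 to 10.91. No tumour of either group crossed over in these 6 genes. Tfap2a was less uniform, at 9.29 and 9.81 in EMT 4 and EMT 6 and 5.93 in EMT 5 against 10.05 to 11.13. Gata3, a luminal factor, differed less: 7.51, 8.29 and 8.44 against 8.55 to 10.42.

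EMT transcription factors lay above every Squamous tumour for 3 of 18 members, Zeb1, Twist1 and Snai1, and below for 1, Foxc1. Over all genes the shares were 8.52% above and 6.2% below. In the list 13 differences were positive and 5 negative (median 1.04). Hmga2, a chromatin protein of embryonic tissue, was 12.90 in EMT 4 and 13.60 in EMT 6 but 8.87 in EMT 5, inside the Squamous range of 7.40 to 9.34. Tcf3 (E2A), a helix-loop-helix factor, was 9.33, 8.50 and 9.38 against 8.15 to 8.61. Foxc1, a forkhead factor often counted with the inducers of EMT, was 7.34, 6.46 and 8.13 against 8.95 to 10.14. The Snail family split. Snai1 was 8.20, 7.64 and 9.24 against 4.96 to 7.53, above every Squamous tumour, whereas Snai2 (Slug) was 7.73, 6.27 and 5.78 against 5.71 to 8.28. Zeb2 was 9.11, 9.77 and 8.71 against 5.48 to 8.997. Each EMT tumour was within the Squamous range in Snai2, and the differences were 1.70 (SE 0.68) for Snai1 and −0.58 (SE 0.62) for Snai2.

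Mesenchymal protein genes had 18 of 28 members above every Squamous tumour, but 2 passed the test, Axl and Wipf1 (6.54% of all genes passed as higher). Axl, a receptor kinase of mesenchymal cells, was 10.75, 11.54 and 11.61 against 7.34 to 9.50, a rise of 2.12 (SE 0.50, limma adjusted p = 0.0203). Vim (vimentin) was 13.85, 13.37 and 13.51 against 10.74 to 13.28, a difference of 1.01 (SE 0.62, limma adjusted p = 0.350). Fn1 (fibronectin) was 13.71, 14.46 and 14.56 against 9.83 to 13.39, a difference of 1.47 (SE 0.77, limma adjusted p = 0.260). For both genes the lowest Squamous value was that of Squamous 1, and all 3 EMT tumours lay above the highest Squamous tumour. S100a4, a calcium-binding protein of fibroblasts and motile cells, was 13.76, 11.92 and 13.83 against 7.69 to 11.49 (difference 3.01, SE 0.92, limma adjusted p = 0.0573). The list mean was 11.22, 10.89 and 11.01 in EMT 4, EMT 5 and EMT 6, and in the Squamous tumours it ran from 8.30 in Squamous 1 to 10.49 in Squamous 9. Without EMT 4 or without Squamous 9 no member passed, and without EMT 5 there were 5.

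Collagen and fibroblast matrix genes had 0 of 28 members past the threshold (limma; 4 were higher at an unadjusted p below 0.05), and their means followed the same 2 Squamous tumours at the low end. The EMT means were 12.09, 11.37 and 10.71, and the Squamous means 8.30 to 11.37 (median 10.73), with Squamous 1 lowest and Squamous 2 next at 8.83. Col1a1, the main chain of type I collagen, was 14.40, 14.11 and 12.38 against 10.22 to 13.64. Cdh11, a cadherin of fibroblasts and bone cells, was 11.74 in EMT 4 and 7.83 and 7.85 in EMT 5 and EMT 6, against 6.24 to 10.90. Fmod (fibromodulin) likewise was 10.02, 4.85 and 4.70 against 6.31 to 11.02. Hence EMT 5 and EMT 6 had high Vim and Fn1 together with Cdh11 below that of EMT 4 and Fmod near background.

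Of the simple keratins, Krt7, Krt19 and Krt23 were low in all 3 EMT tumours, whereas Krt8 and Krt18 were low in EMT 5 alone. Krt8 and Krt18 form the filament of simple epithelium. Krt8 was 13.20 and 12.50 in EMT 4 and EMT 6, against 11.56 to 13.18 in the Squamous tumours, and 7.35 in EMT 5. Krt18 was 12.29 and 11.52 in EMT 4 and EMT 6 against 11.18 to 12.61, and 6.61 in EMT 5. The 3 probe sets of Krt8 gave the same pattern. The differences were −0.38 (SE 1.04) for Krt8 and −0.82 (SE 0.94) for Krt18, with limma adjusted p of 0.876 and 0.663. EMT 4 and EMT 6 therefore kept Krt8 and Krt18 at Squamous levels while Cdh1, Epcam and Esrp1 were low.

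The 3 simple keratins that passed all fell. Krt7, a glandular keratin, was 6.72, 5.68 and 5.78 against 9.11 to 11.43 and fell by 4.11 (SE 0.45, limma adjusted p = 0.000399). Krt19 fell by 4.41 (SE 0.81) and Krt23 by 4.57 (SE 0.60), and the Krt19 call ended without EMT 4. Basal keratinocyte genes fell in 10 of 18 members and rose in 1 (4 fell without Squamous 9). Krt5 was 6.40, 6.47 and 5.35 against 8.89 to 12.62 and fell by 5.58 (SE 0.88, limma adjusted p = 0.00268). Krt14, its partner, was 9.64, 7.89 and 8.41 against 10.58 to 14.16, still well above background, and fell by 4.16 (SE 0.82, limma adjusted p = 0.00921, not called without Squamous 9). Krt17 was 5.11, 3.67 and 3.45 against 7.68 to 11.46. Dst, a plakin that links filaments to the hemidesmosome, was the member that rose, by 1.23 (SE 0.28, limma adjusted p = 0.0173), but the mean of its probe sets had a difference of −0.35, and without EMT 4 or Squamous 9 it was not called. Lama3, a laminin chain, was 9.52 in EMT 4 and 4.89 and 5.04 in EMT 5 and EMT 6, against 7.82 to 10.52. The integrin gene Itgb4, in contrast, was 10.39 and 10.11 in EMT 4 and EMT 6 but 5.70 in EMT 5, against 8.42 to 9.86, so it went with Krt8 and not with Lama3.

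The neurofilament light chain gene Nefl, which encodes an intermediate filament protein of neurons, had the largest rise of all genes. It was 10.97, 10.67 and 10.97 in EMT 4, EMT 5 and EMT 6 and between 3.67 and 4.07 in every Squamous tumour, a difference of 7.03 (SE 0.11, limma adjusted p = 5.1e-11, 130-fold). The difference was 7.23 among numbered arrays and 6.75 among TM arrays. Its partner genes were not raised in the same way: Nefm was 3.65, 7.70 and 4.15 against 3.52 to 3.77, and Nefh 3.99, 3.69 and 3.69 against 3.69 to 4.30. Nefl was read by a single probe set. In the EMT tumours above the limit it was 3.88, 3.84 and 5.92 in EMT 1, EMT 2 and EMT 3.

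**Figure D2:**
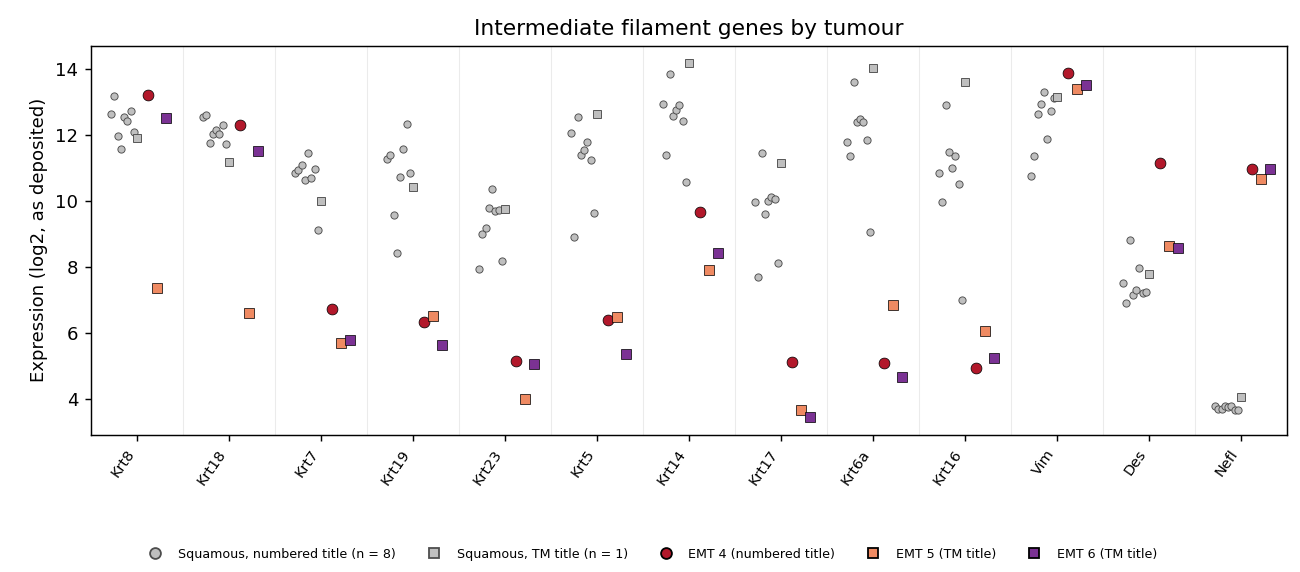
Expression (log2, as deposited) of intermediate filament genes in each tumour, with grey points for the 9 Squamous tumours, coloured points for the 3 EMT tumours and squares for TM titles. Nefl lay at 10.67 to 10.97 in EMT and 3.67 to 4.07 in Squamous tumours, and Krt8 was 7.35 in EMT 5 and 13.20 and 12.50 in EMT 4 and EMT 6.

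Cornified envelope genes, the end products of keratinocyte maturation, fell in 19 of 32 members, and all 32 differences were negative with a median of −4.69 (6 fell without Squamous 9). Tchh (trichohyalin), a hair follicle protein, fell most of all genes: 4.74, 6.54 and 3.29 against 9.66 to 13.13, a difference of −7.62 (SE 1.01, limma adjusted p = 0.000984). Krt6a, a keratin of stressed and follicular epithelium, was 5.07, 6.85 and 4.67 against 9.04 to 14.03 and fell by 7.42 (SE 0.96, limma adjusted p = 0.000881). Krt16, its partner, fell by 6.66 (SE 1.16, limma adjusted p = 0.00477) and was not called without Squamous 9. Gjb2 (connexin 26) was 4.89, 8.26 and 6.07 against 9.83 to 13.58. Asprv1, a protease that processes filaggrin, was 5.24, 6.02 and 5.49 against 8.87 to 13.10. The Squamous tumours themselves spread widely on this list. Its mean ran from 6.52 in Squamous 8 to 11.33 in Squamous 9, with a median of 9.06, and was 5.61, 6.09 and 5.13 in EMT 4, EMT 5 and EMT 6. Krt1 and Krt10, the keratins of suprabasal skin, did not pass, and Squamous 8 was about as low as the EMT tumours: Krt10 was 6.24, 7.68 and 6.67 against 6.61 to 14.46. In EMT 5, the envelope precursors Sprr1a and Sprr1b lay within the Squamous range. Sprr1a was 11.54 there and 5.21 and 4.63 in EMT 4 and EMT 6, against 8.35 to 13.94. Sprr1b was 7.48 there and 3.77 and 3.27 in EMT 4 and EMT 6, against 5.24 to 13.12.

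Milk and luminal genes fell in 11 of 27 members, and all 27 differences were negative (median −2.06; 6 fell without EMT 4). Ltf (lactotransferrin) was 8.02, 7.35 and 8.71 against 11.65 to 14.18 and fell by 4.71 (SE 0.55, limma adjusted p = 0.000526). Lcn2 (lipocalin 2), a siderophore-binding protein of epithelium and neutrophils, was 9.07, 7.76 and 8.48 against 12.38 to 13.83 and fell by 4.37 (SE 0.19, limma adjusted p = 5.05e-07). Muc15, a milk fat globule mucin, was 6.50, 4.80 and 3.45 against 9.59 to 12.33. Csn2 was not low in every EMT tumour. Csn2 (beta-casein) was 13.19 in EMT 4, inside the Squamous range of 12.87 to 14.39, 11.03 in EMT 5 and 6.74 in EMT 6. Csn3 (kappa-casein) was 10.69, 9.84 and 7.11 against 12.96 to 14.38, and Wap (whey acidic protein) 10.42, 8.58 and 5.88 against 9.26 to 14.12. All 3 milk genes had their highest EMT value in EMT 4 and their lowest in EMT 6.

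Adipocyte genes, several of which secretory epithelium also expresses, fell in 5 of 15 members (1 without EMT 4, and 3 without Squamous 9 or any of several other Squamous tumours), namely Thrsp, Cidea, Lpl, Scd1 and Lipe. Thrsp, a regulator of lipid synthesis, was 5.44, 5.86 and 6.26 against 8.72 to 13.51 and fell by 4.78 (SE 0.90, limma adjusted p = 0.00705). Cidea, a lipid droplet protein, was 6.12, 4.52 and 4.62 against 7.69 to 10.002 and was the 1 that stayed called without EMT 4. The calls of Lpl and Scd1 also ended when any of several Squamous tumours was left out.

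Receptor kinases fell in 7 of 29 members (24.1%) and rose in 2 (6.90%), Axl and Ddr2. Over all genes 5.56% fell and 6.54% rose, so the share of risers was near that of all genes. Erbb3, a receptor of the ErbB family with a weak kinase, was 6.15, 6.42 and 6.94 against 10.26 to 11.28 and fell by 4.44 (SE 0.27, limma adjusted p = 7.81e-06). Fgfr2, whose epithelial splice form answers stromal growth factors, was 7.45, 6.04 and 5.96 against 8.41 to 9.11 and fell by 1.98 (SE 0.33, limma adjusted p = 0.00339). The 2 collagen receptors went opposite ways. Ddr1, the epithelial one, was 10.30, 8.62 and 9.14 against 10.58 to 11.75 and fell by 1.32 (SE 0.20). Ddr2, the mesenchymal one, was 9.28, 10.06 and 9.63 against 6.67 to 8.27 and rose by 1.65 (SE 0.39, limma adjusted p = 0.0215). Without EMT 4 or without Squamous 9, Axl and Ddr2 were not called and 4 kinases fell. Fosl1, an AP-1 subunit downstream of Ras and MAP kinases, was the 1 riser among 16 genes of that output (6.25%, near the 6.54% of all genes). Fosl1 was 9.90, 9.43 and 10.11 against 6.24 to 7.98 (difference 2.66, SE 0.40, limma adjusted p = 0.00197, not called without EMT 4). Without Squamous 2 or without Squamous 4, 2 and 3 genes of that output rose.

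Wnt pathway genes fell in 4 of 28 members (14.3%) and rose in 1 (3.57%), where 5.56% of all genes fell and 6.54% rose. Wif1, a secreted Wnt inhibitor, was 5.33, 3.69 and 3.61 against 7.15 to 11.70 and fell by 6.08 (SE 1.10, limma adjusted p = 0.00594). Axin2 and Nkd2, negative-feedback targets of the pathway, were 7.20, 6.29 and 8.71 and 7.15, 6.20 and 6.90, against 9.85 to 10.66 and 8.17 to 10.89. Wnt6, a ligand of epithelium, fell by 1.90 (SE 0.42), and Fzd2, a receptor, rose by 0.80 (SE 0.23, limma adjusted p = 0.0493). The Axin2 call ended without EMT 4, the Wif1, Nkd2 and Wnt6 calls ended without Squamous 9, and the Fzd2 call ended without any of several tumours. In the TGF-beta pathway, Bambi, Tgfb2 and Smad6 fell (12.5%) and Acvr1 rose (4.17%) among 24 genes. Each of these calls ended without EMT 4 and also without several other single tumours. Tgfbr2, the type II receptor, was 12.08, 12.91 and 12.92 against 9.36 to 11.49, above every Squamous tumour, with a difference of 1.49 (SE 0.44, limma adjusted p = 0.0522).

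Matrix proteases rose in 2 of 25 members (8%) and fell in 1 (4%), shares near those over all genes (6.54% and 5.56%). Plat, the tissue plasminogen activator, was 11.03, 10.60 and 10.60 against 7.48 to 9.41 and rose by 2.00 (SE 0.40, limma adjusted p = 0.0100). Mmp12, an elastase of macrophages, was 5.29, 8.95 and 9.49 against 9.58 to 13.54 and fell by 5.46 (SE 0.97, limma adjusted p = 0.00513). Mmp16, a membrane-bound protease, was the other riser (difference 1.73, SE 0.40) and EMT 5 lay inside its Squamous range. The calls of Plat, Mmp12 and Mmp16 ended without EMT 4, and that of Mmp16 also without Squamous 9, while 4 proteases rose without EMT 6. Timp1, a protease inhibitor, was 12.59, 14.16 and 12.67 against 7.83 to 11.69 (difference 2.62, SE 0.92, limma adjusted p = 0.0929).

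Myc, which drives the tumours, was 9.18, 9.78 and 10.04 in EMT 4, EMT 5 and EMT 6 and 9.79 to 12.29 (median 11.40) in the Squamous tumours. The difference was −1.19 (SE 0.71, limma adjusted p = 0.331), with −2.06 among numbered arrays and −0.03 among TM arrays. Whether its probe set detects the transgene is not given in the sources used here. Of 27 Myc partners and targets, Polr1b and Npm1 fell (7.41%, near the 5.56% of all genes) and 0 rose (limma). At an unadjusted p below 0.05 (limma), 1 was higher and 7 lower. Polr1b fell by 0.67 (SE 0.18) and Npm1 by 0.36 (SE 0.10). Both calls ended without EMT 4, EMT 5, Squamous 6 or Squamous 9, and that of Npm1 without further tumours too.

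Proliferation genes had 0 of 29 members past the threshold (limma; 2 were higher at an unadjusted p below 0.05), with a median of 0.28. Among 21 genes of G1 control, 4 rose (19.0%, where 6.54% of all genes rose). They were Cdk4 and E2f1, which promote entry into S phase, and the kinase inhibitors Cdkn2c and Cdkn2d. Cdkn2d (p19Ink4d) was 8.35, 9.18 and 9.68 against 7.52 to 8.34 and rose by 0.83 (SE 0.15, limma adjusted p = 0.00521). Cdk4 rose by 0.59 (SE 0.15) and E2f1 by 0.54 (SE 0.14), and both calls ended without EMT 4, EMT 6 or Squamous 9. Of the inhibitors, the Cdkn2c call ended without any of several tumours and that of Cdkn2d without Squamous 9. The hypoxia and glycolysis list had P4ha1, P4ha2 and Hk1 higher among 22 genes (13.6%, where 6.54% of all genes rose). P4ha1, a collagen prolyl hydroxylase, was 9.33, 11.27 and 10.92 against 7.26 to 8.65 and rose by 1.84 (SE 0.40, limma adjusted p = 0.0142), and P4ha2 rose by 1.20 (SE 0.24). None of these 3 was called without Squamous 9, nor Hk1 without EMT 4 or EMT 6. The list mean was 9.33 in EMT 4 but 11.06 in EMT 5 and 11.37 in EMT 6, against 9.43 to 10.24.

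**Figure D3:**
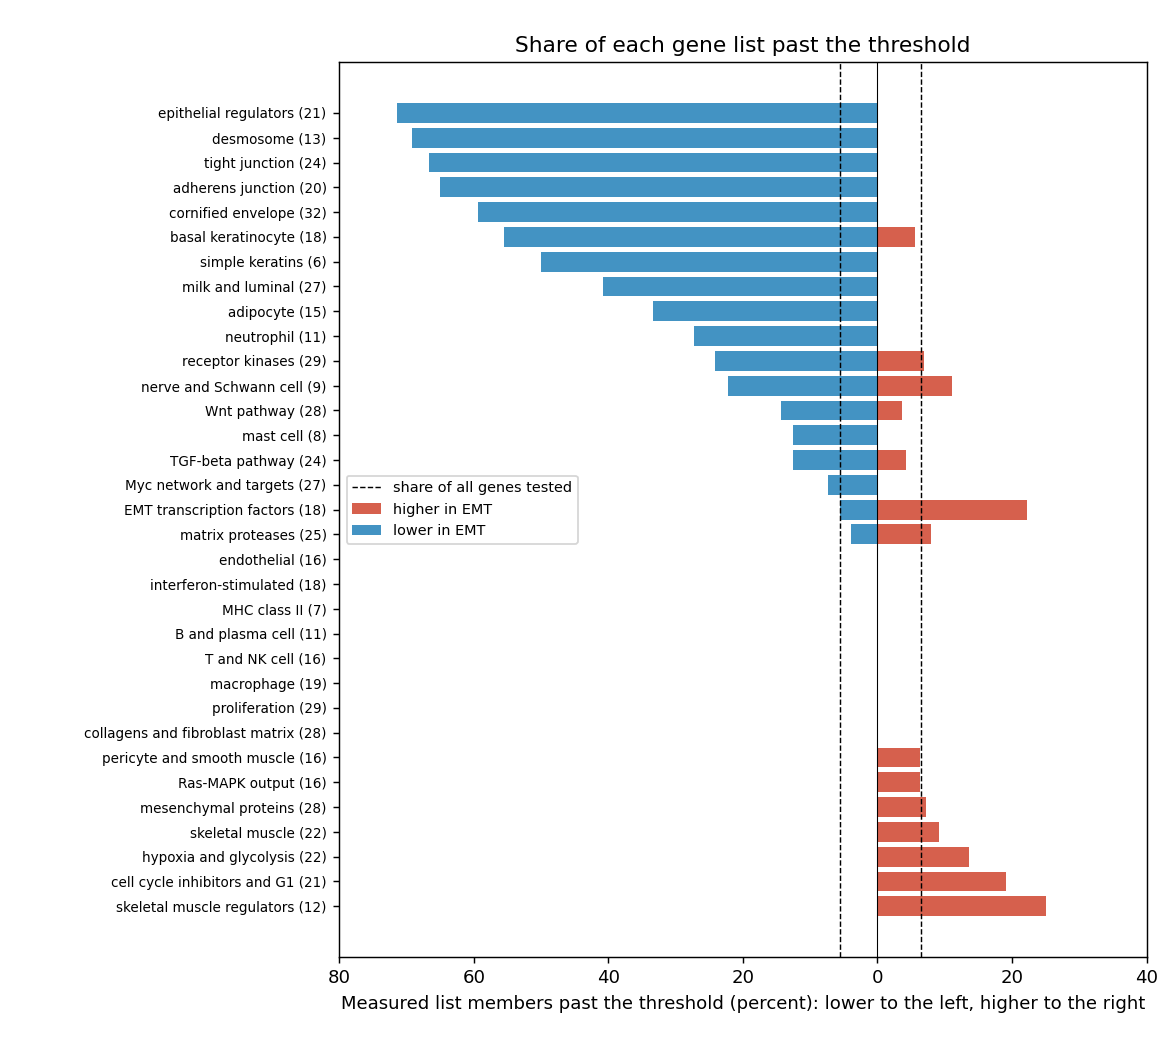
Share of the measured members of each gene list (number in brackets) that passed the threshold of adjusted p below 0.05, with lower genes to the left and higher genes to the right; dashed lines mark 5.56% lower and 6.54% higher over all genes. Lists of junctions, epithelial regulators and keratinocyte genes lay on the lower side, as did 5 of 15 adipocyte and 3 of 11 neutrophil genes, while the collagen, macrophage, T and NK cell, B and plasma cell and endothelial lists had 0 members past the threshold (limma). The junction, regulator and EMT factor shares are a description, since the tumours were chosen by Cdh1.

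Ankrd1, Ltc4s and Slc9b2 were among the genes with the largest rises after Nefl. Ankrd1, a muscle and Yap-target protein, was 10.96, 9.81 and 9.76 against 4.96 to 7.33 and rose by 4.66 (SE 0.53, limma adjusted p = 0.000437). Ltc4s, the leukotriene C4 synthase of myeloid cells, was 10.95, 11.36 and 10.55 against 6.86 to 7.96 and rose by 3.79 (SE 0.27, limma adjusted p = 2.12e-05). Both calls held without any single tumour. Slc9b2, a sodium and proton exchanger, was 9.08 and 8.55 in EMT 4 and EMT 6 and 5.91 in EMT 5, against 4.46 to 5.58 (difference 3.60, SE 0.57, not called without EMT 4).

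Granzymes of a clustered family were among them. Gzmd was 9.59, 10.97 and 6.78 in EMT 4, EMT 5 and EMT 6 against 3.32 to 6.27 and rose by 5.22 (SE 1.06, limma adjusted p = 0.0104). Gzmg was 6.13, 11.77 and 7.86 against 3.39 to 4.37, and Gzmf was 6.30, 10.83 and 7.04 against 3.73 to 4.19. Gzmc and Gzme rose too, by 3.20 (SE 0.91) and 3.56 (SE 0.93), whereas Gzmb, the granzyme of cytotoxic lymphocytes, had a difference of 2.08 (SE 0.65, limma adjusted p = 0.0614). These genes are near-identical copies, their probe sets may read each other's transcripts, and their values are uncertain for that reason. T and NK cell genes had 0 of 16 members past the threshold, and 1 was higher at an unadjusted p below 0.05 (limma). Their mean was 5.65, 6.17 and 5.56 in EMT 4, EMT 5 and EMT 6 against 5.35 to 6.51, within the Squamous range in all 3 tumours. The upper end of that range was Squamous 8 alone, with the next tumour at 5.77. EMT 5 thus lay above every Squamous tumour but Squamous 8. The Gzmd, Gzmf and Gzmg calls ended without Squamous 9, that of Gzmd also without EMT 4, and those of Gzmc and Gzme without EMT 4, EMT 5 or Squamous 9.

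Macrophage genes had 0 of 19 members past the threshold (limma; at an unadjusted p below 0.05, 7 were higher and 1 lower). The list mean was 10.37, 11.96 and 11.61 against 8.59 to 10.71, so EMT 4 was inside the Squamous range. Outside the list, Vsig4 and Lyve1 were among the largest rises. Vsig4, a complement receptor of resident macrophages, was 7.99, 10.20 and 8.88 against 4.38 to 6.47 and rose by 3.45 (SE 0.61, limma adjusted p = 0.00500). Lyve1, of lymphatic vessels and resident macrophages, was 9.95, 11.47 and 10.06 against 5.28 to 8.59 and rose by 3.27 (SE 0.73, limma adjusted p = 0.0163). Mrc1, the mannose receptor, was 11.45, 12.10 and 11.04 against 6.94 to 10.28 (difference 2.04, SE 0.76, limma adjusted p = 0.111). Csf1r, the receptor of the macrophage growth factor, was 12.83, 13.79 and 13.57 against 10.41 to 12.29 (difference 1.39, SE 0.49, limma adjusted p = 0.0965). The Vsig4 and Lyve1 calls ended without Squamous 9, and that of Lyve1 also without EMT 4.

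Tpsab1, which is not in the mast cell list, and Cpa3, which is, were highest in EMT 4. Tpsab1, a mast cell tryptase, was 11.43, 8.38 and 7.40 against 5.78 to 6.87 and rose by 3.56 (SE 0.63, limma adjusted p = 0.00500, not called without EMT 4), and Cpa3, a mast cell carboxypeptidase, was 10.23, 6.19 and 6.04 against 5.68 to 8.31. The mast cell mean was 7.60 in EMT 4 and 5.64 and 5.50 in EMT 5 and EMT 6, against 5.86 to 7.25. Kit, which mast cells and luminal progenitors share, was 7.54, 7.82 and 7.22 against 9.26 to 11.12 and fell by 2.39 (SE 0.38, limma adjusted p = 0.00301, not called without EMT 4), so it did not move with the tryptase. The part of mast cells in the Tpsab1 rise was not tested.

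Neutrophil genes fell in 3 of 11 members, of which Lcn2 and the calprotectin genes are also made by keratinocytes. S100a8 was 7.76, 8.42 and 10.78 against 12.26 to 14.13 and fell by 4.67 (SE 0.60, limma adjusted p = 0.000844). S100a9, its partner, fell by 4.78 (SE 0.81, not called without EMT 4). The neutrophil mean, with these 3 genes in it, was 6.45, 6.57 and 6.78 against 7.58 to 9.42, below every Squamous tumour. The other 8 members had negative differences, but none passed and each overlapped between the groups. The mean therefore does not show that the genes outside these 3 lay below every Squamous tumour. B and plasma cell genes had 0 of 11 members past the threshold (limma; 2 were lower at an unadjusted p below 0.05), with means of 5.46, 5.41 and 5.25 against 5.56 to 7.84. Endothelial genes had 0 of 16 (limma; 1 was lower at an unadjusted p below 0.05), with means of 8.17, 8.35 and 8.02 against 6.70 to 8.40. The interferon-stimulated list had 0 of 18 (limma; also 0 at an unadjusted p below 0.05), but its mean was 9.997 in EMT 5 against 7.33 in EMT 4, 8.17 in EMT 6 and 6.78 to 8.42 in Squamous tumours.

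Skeletal muscle genes split the EMT tumours most. The list mean reached 10.15 in EMT 4 and was 5.18 in EMT 5 and 7.65 in EMT 6, and in the Squamous tumours it ran from 5.03 to 8.13 (median 5.30). Myh1, a fast myosin, was 12.15, 3.05 and 10.03 against 3.39 to 11.07, the widest range among the 3 EMT tumours of any listed gene. Tnnc1 and Tnnt1, troponins of slow muscle, were the 2 of 22 that passed (9.09%, where 6.54% of all genes rose). All 22 differences were positive, with a median of 2.96 (4.08 among numbered arrays and 1.36 among TM arrays). At an unadjusted p below 0.05 (limma), 14 of the 22 were higher. The number that passed was 1 without EMT 4, 6 without EMT 5, 4 without Squamous 3 and 5 without Squamous 9. Tnnc1 was 9.22, 6.61 and 6.13 against 4.22 to 5.24 and rose by 3.44 (SE 0.38, limma adjusted p = 0.000409), and Tnnt1 was 9.27, 7.18 and 6.09 against 4.34 to 5.40 (difference 3.11, SE 0.55, not called without EMT 4). EMT 5 thus had both troponins above the Squamous range with fast myosin near background. Of 12 muscle regulators, Chrna1 (the acetylcholine receptor alpha subunit), Des (desmin) and Myf6 rose (25%, where 6.54% of all genes rose). Chrna1 was 6.73, 6.36 and 6.91 against 4.55 to 5.43 and rose by 1.82 (SE 0.22, limma adjusted p = 0.000589), whereas Des was 11.13 in EMT 4 and 8.63 and 8.58 in EMT 5 and EMT 6 against 6.89 to 8.80. Myf6, a myogenic factor, was 7.27 in EMT 4 and 4.09 and 4.59 in EMT 5 and EMT 6 against 3.72 to 5.27 (median 4.78), so EMT 4 alone was high. The part of muscle tissue in the rises of the troponins, Chrna1 and Ankrd1 was not tested. The Des and Myf6 calls ended without EMT 4, 1 regulator passed without EMT 4, and 5 passed without Squamous 9. Sox10, a factor of Schwann cells and of mammary progenitors, fell by 2.90 (SE 0.37, limma adjusted p = 0.000844), from 8.89 to 11.61 in Squamous tumours to 7.45, 6.67 and 7.13.

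**Figure D4:**
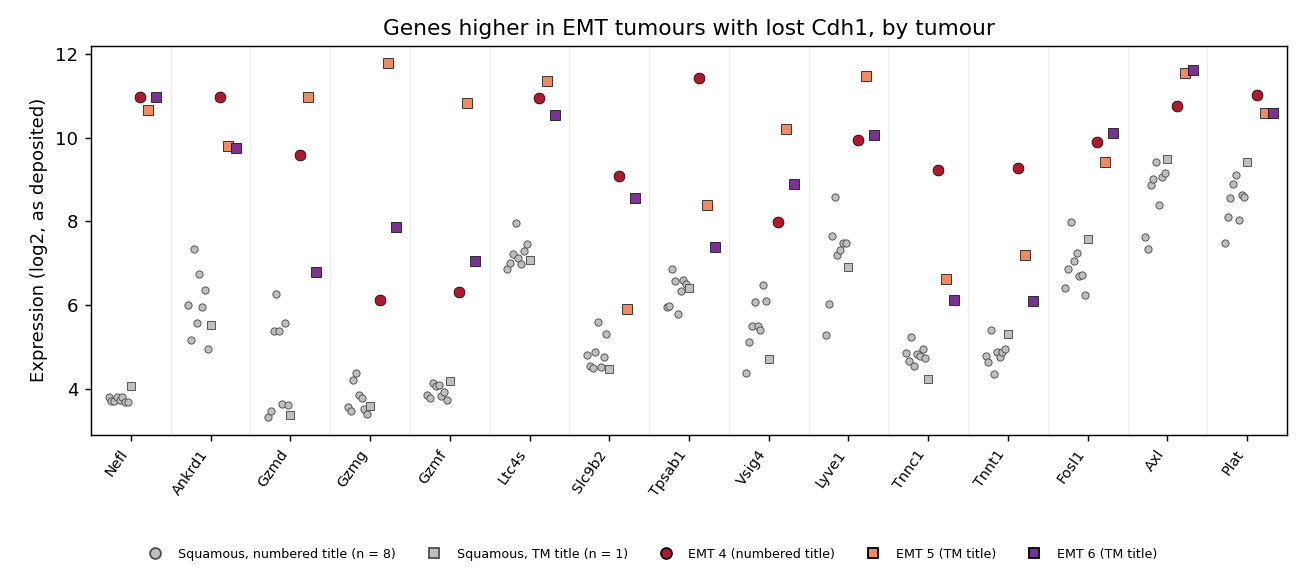
Expression (log2, as deposited) of genes with the largest rises and of Fosl1, Axl and Plat in each tumour; grey points are the 9 Squamous tumours, coloured points the 3 EMT tumours, squares the TM titles. Nefl, Ankrd1 and Ltc4s lay together in the 3 EMT tumours (Ltc4s 10.55 to 11.36), while Gzmg ran from 6.13 in EMT 4 to 11.77 in EMT 5.

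**Figure D5:**
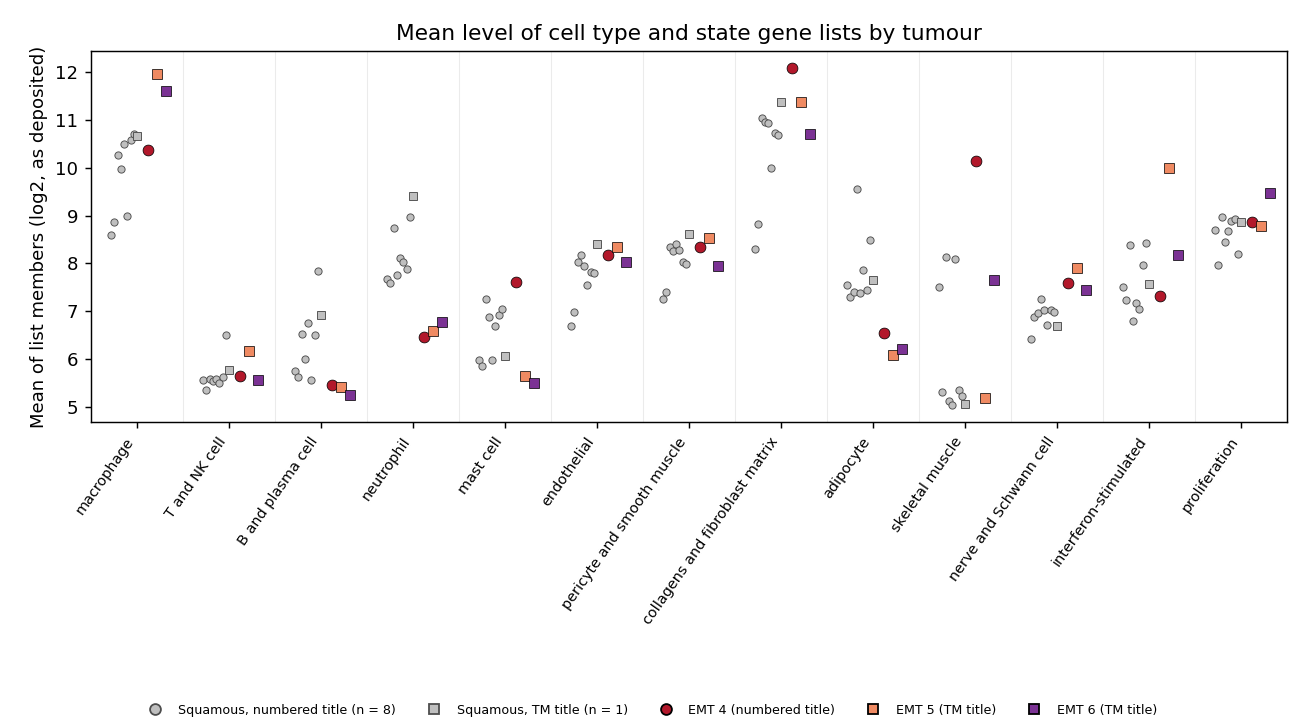
Mean log2 level of cell type and state gene lists in each tumour, to be read within a list and not between lists; grey points are the 9 Squamous tumours, coloured points the 3 EMT tumours, squares the TM titles. The macrophage mean was 10.37, 11.96 and 11.61 in EMT 4, EMT 5 and EMT 6, and the skeletal muscle mean 10.15, 5.18 and 7.65.

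The 3 EMT tumours also differed among themselves. The median SD over all genes was 0.309 among the 3 EMT tumours and 0.254 among the 9 Squamous tumours. These SDs were taken without a term for title format. The EMT tumours mix both formats, while all Squamous tumours but Squamous 9 share the numbered one. The larger EMT value therefore cannot be told apart from title format. Between EMT 5 and EMT 6, which share the TM titles, 23 genes were more than 4 higher in EMT 6 and 37 more than 4 higher in EMT 5. EMT 5 was set apart by low Krt8, Krt18, Itgb4, Hmga2 and fast muscle genes and by high interferon-stimulated genes, Gzmg and Sprr1a. EMT 6 had the lowest caseins and the highest Snai1, and EMT 4 had the highest Cd24a, a luminal surface glycoprotein, at 12.07 against 7.73 and 8.65 in EMT 5 and EMT 6 and 12.76 to 13.82 in Squamous tumours.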

How the data were processed

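Log2 values per probe set were used as the authors deposited them, and the values themselves show the scale. Biotinylated cRNA was made from total RNA by Affymetrix's usual method, per the labels' protocols. The normalization and software behind the values are not given in the sources used here. Of 22690 probe sets, 20380 were paired with 1 gene symbol by the platform annotation, 691 with several and 1555 with none, and 64 were controls. Each of 12393 genes was represented by its brightest probe set on average over the 17 arrays. The 3 EMT tumours with Cdh1 (1 probe set) below 10 were compared with 9 Squamous tumours by limma 3.58.1 in R 4.3.3, with title format as an additive term, moderated two-sided tests and p-values adjusted by Benjamini-Hochberg over all 12393 genes, at a threshold of 0.05. SE is the model's standard error, a difference is EMT minus Squamous on the log2 scale, and a fold is 2 to the power of its size. The EMT 1, EMT 2 and EMT 3 tumours and the Papillary and Microacinar tumours did not enter this main fit. They entered the choice of probe set and an alternative fit of all 17 tumours.

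The members and the gene lists were chosen with earlier results of these data known. Named genes were the 12 highest and 12 lowest among genes past the threshold whose groups did not overlap and whose sign was the same in both title formats, up to 4 members past the threshold in each direction and the 2 with the largest difference that did not pass per list, any member of the junction, regulator, EMT factor, mesenchymal, simple keratin and basal keratinocyte lists, a few fixed genes such as Myc, and the 6 genes with the widest range among the 3 EMT tumours. Csn2, Csn3, Wap, Col1a1, Ddr1, Lipe, Nefm, Nefh, Gzmc and Gzme fall outside this rule and were chosen after their values were seen.

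Replicate numbers were given in accession order, and Squamous 7 and Squamous 8 share the title number 1407, so p-values cover the spread among these 12 tumours, which may be partly technical. The number of arrays limits the precision. Promoter windows came from RefSeq (GRCm38.p6), matched by symbol. On simulated data with the spread of this fit over 12393 genes, the model recovered 32 of 50 genes changed by a log2 of 1, 42 of 50 at 2, 43 of 50 at 3 and 48 of 50 at 4, with 4 false calls. Python 3.11.15, pandas 2.3.3, numpy 2.4.6, scipy 1.17.1 and matplotlib 3.10.9 were used. Alternatives dropped the title format term, kept 1 title format at a time, quantile-normalized or median-centred the arrays, averaged the probe sets of a gene or tested all of them, kept genes above the median level, used limma's trended and robust fit, its array weights or a log2 fold threshold of 1, fitted all 17 tumours, averaged the 1407 tumours and left out each tumour.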

Additional observations from a re-analysis of the deposited data

Results flagged for a closer look

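In 15 of 168 groups of 9 Squamous values tested, the highest or lowest tumour stood far from the others, and chance flags about 1 in 20. Squamous 9, the one Squamous tumour with a TM title, was that tumour for 9 genes, so the tumour and the title format cannot be told apart. Its value was high for Cdkn2d (8.34, next tumour 7.87), Ctnnb1 (13.74, next 13.06) and Nefl (4.07, next 3.80). Its value was low for Csn2 (12.87, next 13.63), Dsg2 (9.03, next 10.08), Lcn2 (12.38, next 13.30), Myf6 (3.72, next 4.51), Nefh (3.69, next 4.11) and Sox10 (8.89, next 10.61). The EMT values of Nefl, Dsg2, Lcn2 and Sox10 lay outside the Squamous range with this tumour included, and these genes were also called without it.

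Squamous 3 had a high Chrna1 value (5.43, next 4.98) and a low Lpl value (10.05, next 11.43). Squamous 2 was low in Snai2 (5.71, next 7.23) and in the mean of G1 control genes (7.97, next 8.30). Squamous 8 was low in Itgb4 (8.42, next 9.28) and high in the mean of T and NK cell genes (6.51, next 5.77).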

How the results depend on the processing

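No paired analysis was possible because the labels give no replicate numbers, and those used were given in accession order. Among settings that kept every tumour, the count of higher genes (811) was 1336 with all probe sets tested, 525 with array weights, 510 among genes above the median level, 1670 with no title format term and 14 with a log2 fold threshold of 1. The count of lower genes (689) was 128 with the fold threshold. On numbered arrays only, which leaves out EMT 5, EMT 6 and Squamous 9, it was 375. The fold threshold moved the share of higher genes among those called from 54.07% to 9.859%. Leaving out 1 tumour gave 266 (without EMT 4) to 865 higher genes and 360 (without Squamous 9) to 723 lower genes, and the share higher was 37.84% without EMT 4. The RNA integrity difference ranged from −0.2275 to −0.0723 without 1 tumour, and it passed the threshold without EMT 4 (−0.2275, exact permutation p = 0.0182) and without Squamous 5 (−0.1551, exact permutation p = 0.0424). Dst was the one named gene that reversed (−0.35 with the mean of probe sets). Of the 134 genes named, 99 were called and 39 kept the call in each of the 22 alternative fits that held the gene, the fold threshold left out. The call ended for 45 of them without EMT 4, 40 without Squamous 9, 30 on numbered arrays only and 15 with array weights, and for no more than 12 under any other of these settings. Within each title format 1 group had a single tumour, EMT 4 among numbered titles and Squamous 9 among TM titles. The 39 genes that kept the call include Cdh1, which chose the tumours, and junction and regulator genes such as Epcam, Esrp1 and Grhl1. For these the kept call is a description and no test.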
